A study of Homo sapiens with 4 samples.

Results

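The 10 keratins described here are KRT5, KRT14 and KRT17, which mark basal cells, KRT6A, KRT6B and KRT16, which are known as stress keratins, and KRT7, KRT8, KRT18 and KRT19, which are found in simple epithelia such as the luminal layer of the breast. They were chosen by name from the 19568 genes with a count in the files, and all 10 were found in each of the 4 plates. The cells were MCF10A, an untransformed human mammary epithelial line, expressing a GFP-tagged histone H2B and grown for 6 days as a circular patch on fibronectin-coated glass. In the low-resolution experiment (replicates 1 and 2), the patch was divided into 3 concentric bands of 1000 to 1500 μm, which were told apart by phototagging with photoactivatable Janelia Fluor dyes, and in the high-resolution experiment (replicates 1 and 2) the outermost 250 μm and the 250 μm inside it were tagged. Live single cells were then sorted for RNA sequencing by SORT-seq, a plate-based method that counts each molecule once at its 3′ end by a unique molecular identifier (UMI). The wells were not split by band here, and every value is for the cells sorted from a replicate, in unknown shares of the bands. All groups are the same line with no drug or genetic change between them, and the experiments differ in the width of the tagged bands and hence in which cells of the patch were sorted. They were also sorted to separate plates, so band width cannot be told apart from a difference between plates.

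A plate of 384 wells was filled from each replicate, and of the 1536 wells 1146 held a cell with 2000 to 9000 detected features and under 40% mitochondrial counts. The plates held 11709628 to 14992348 transcripts in all, spike-ins included. They held 271 to 293 passing cells, whose median depth, also with spike-ins, was 30520 and 33757 at low and 35742 and 41248 at high resolution. Replicates 1 and 2 are biological replicates according to the design text, and the names of the files place low-resolution replicate 1 on another flow cell than the other 3 plates. The epithelial markers CDH1, EPCAM, KRT5, KRT14, KRT8 and KRT18 summed to between 27.8 and 32.2 counts per 10000 in each plate. Most of this sum was keratin, as KRT5, KRT14, KRT8 and KRT18 are themselves among the 10 members. KRT5 alone was at 17.6 to 23.2 per 10000, whereas CDH1 was at 0.437 to 0.741 and EPCAM at 0.957 to 1.10. The summed markers of fibroblasts (0.0674 to 0.132), immune cells (0.254 to 0.571) and endothelial cells (0.141 to 0.214) were lower than the epithelial sum. The fibroblast gene LUM had no row. Markers other than keratins summed to 0.173 to 0.213 for basal or myoepithelial cells and to 0.312 to 0.607 for luminal cells. The myoepithelial marker CNN1 and the luminal progenitor marker KIT had no row in the files, TP63, a transcription factor of basal cells, was between 0.00739 and 0.0105 per 10000, and PGR and ELF5 had at most 3 UMIs in any plate. The 384 cell barcodes are the same in every plate, since they belong to the wells, and do not mark shared cells.

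Keratins form the intermediate filaments of epithelial cells. Each filament is built of pairs of a type I (acidic) and a type II (basic) chain, so that KRT5 is usually paired with KRT14, KRT8 with KRT18, and KRT6A or KRT6B with KRT16 or KRT17. In the breast, basal cells are known for KRT5, KRT14 and KRT17, and luminal cells for KRT7, KRT8, KRT18 and KRT19, whereas KRT6A, KRT6B and KRT16 are induced in epidermis by wounding. Cells that go through an epithelial-to-mesenchymal transition (EMT) are known to give up keratins for vimentin, another intermediate filament protein.

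The type II genes lie on chromosome 12 and the type I genes on chromosome 17, apart from KRT18, a type I gene on chromosome 12. In GENCODE 29 on GRCh38, KRT5 spans chr12:52514575-52520687, KRT6A chr12:52487174-52493257 and KRT6B chr12:52446651-52452126, each on the minus strand, and KRT7 spans chr12:52232520-52252186 on the plus strand. KRT8 spans chr12:52897187-52949954 on the minus strand and overlaps KRT18 at chr12:52948871-52952901 on the plus strand. The remaining genes are all on the minus strand of chromosome 17, with KRT14 at chr17:41582279-41586921, KRT16 at chr17:41609778-41615899, KRT17 at chr17:41619441-41624842 and KRT19 at chr17:41523617-41528308. Because SORT-seq reads the 3′ end, the last 400 bases of each gene's longest protein-coding transcript were searched for 50-base words held by transcripts of other genes. Other annotated 3′ ends of these genes were not searched. KRT14 shared 21.4% of these words, with the pseudogenes KRT16P6, KRT16P2 and KRT17P3, and KRT18 shared 11.7% with KRT18P13 and KRT18P10. KRT16 shared 8.55% with KRT16P1, KRT16P3 and KRT17, KRT17 shared 3.42% with KRT16, and KRT19 shared 1.71% with KRT19P1. The sources used here do not say how reads from such words were counted, so the levels of these genes, KRT14 above all, are less certain than the others. KRT5, KRT6A, KRT6B, KRT7 and KRT8 shared none. KRT6A and KRT6B, which are near copies over their coding parts, are thus set apart by words of this length at the 3′ end of that transcript.

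The promoter tables at hand, from RefSeq on GRCh38.p14, matched 2 of the 10 genes, KRT5 and KRT8, and both are shown. KRT5 is a basal and KRT8 a simple keratin, and they differ in how they follow the EMT score below. Neither stands for its class. Each window runs from 250 bases before to 50 bases after the annotated start, at chr12:52520345-52520644 for KRT5 and chr12:52926420-52926719 for KRT8, both on the minus strand. The capitals mark the E2-box CAGGTG, a sequence that the EMT transcription factors SNAI2 and ZEB1 are known to bind.
KRT5: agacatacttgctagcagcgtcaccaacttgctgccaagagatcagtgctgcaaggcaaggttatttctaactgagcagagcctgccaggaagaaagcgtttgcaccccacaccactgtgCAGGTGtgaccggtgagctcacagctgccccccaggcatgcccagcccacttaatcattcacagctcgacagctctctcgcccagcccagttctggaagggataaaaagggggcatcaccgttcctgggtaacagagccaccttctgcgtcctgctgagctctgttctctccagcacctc
KRT8: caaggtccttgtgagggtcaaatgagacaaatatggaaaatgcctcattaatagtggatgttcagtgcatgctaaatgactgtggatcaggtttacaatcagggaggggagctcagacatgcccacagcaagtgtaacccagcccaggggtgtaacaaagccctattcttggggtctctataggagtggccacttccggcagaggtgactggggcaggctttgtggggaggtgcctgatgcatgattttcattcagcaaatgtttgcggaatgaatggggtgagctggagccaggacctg
The KRT5 window held 1 E2-box, at position -130 relative to the start, and the KRT8 window held none. On both strands, CAGGTG was found in 20.6% of all 35116 promoters of this length, the AP-1 site TGANTCA in 7.71%, the TATA box TATAAA in 11.5% and the GC box GGGCGG in 15786 of them. None of the last 3 motifs was found in either window. Both windows lie wholly inside the longer GENCODE spans of their genes given above. The E2-box of KRT5 is thus before the RefSeq start but within the GENCODE span. The windows are not alike, since genes on the minus strand start at the higher coordinate. The KRT5 window reaches 52520644 where its span reaches 52520687, whereas the KRT8 window reaches only 52926719 where its span reaches 52949954. The KRT8 window is thus at a start far inside the span, and its lack of an E2-box does not cover other KRT8 starts. Which starts of the 2 genes these cells use was not analysed here.

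The first question was how much of each keratin the cells held. Levels are counts per 10000 of the summed counts of a plate's passing cells, and because a molecule is counted once, they were not divided by transcript length. KRT7, a type II keratin of glandular ducts, was the most abundant of the 10, at 31.6 ± 5.40 counts per 10000 (SD, n = 4 plates), before KRT6A at 21.3 ± 5.09 and KRT5 at 20.1 ± 2.53. Across plates, KRT7 overlapped with KRT6A, and KRT6A with KRT5. KRT17 (5.47 ± 1.13), KRT8 (4.97 ± 0.283) and KRT16 (4.27 ± 0.288) formed a second tier, whose highest plate lay below the lowest plate of KRT5. KRT14 (1.99 ± 0.971) and KRT18 (1.28 ± 0.209) were lower still and overlapped each other. KRT6B was at 0.611 ± 0.238 and KRT19 at 0.0626 ± 0.0279, and each of these lay apart from its neighbour in all plates. The 10 genes together made up 0.784% and 0.811% of the counts at low and 1.05% and 1.02% at high resolution.

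**Figure D1:**
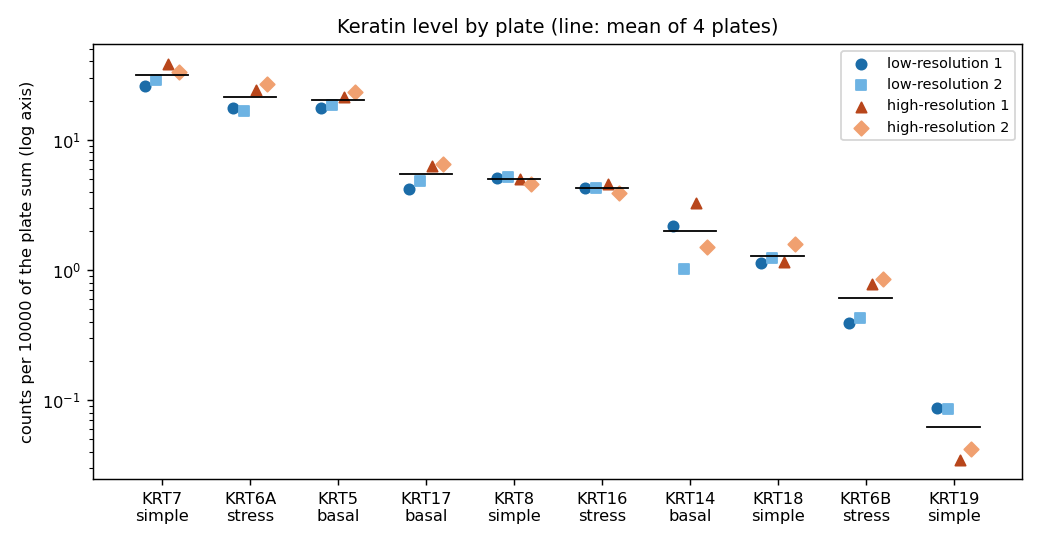
Level of each keratin in the 4 plates, as counts per 10000 of the plate's sum on a log axis, with keratins ordered by their mean (black line). KRT7, KRT6A and KRT5 lie between 16.5 and 38.4 in every plate, and KRT19 lies below 0.1.

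No class of keratin stood for the whole. The basal genes took 29.3% to 30.6% of the keratin counts of a plate, the stress genes 26.2% to 31.0% and the simple genes 38.5% to 43.7%. The usual partners were not counted in equal numbers. KRT5 exceeded its partner KRT14 by a ratio of 8.04 and 18.4 at low and 6.53 and 15.5 at high resolution, and KRT8 exceeded KRT18 by 4.47, 4.24, 4.33 and 2.89. Among the near copies, KRT6A exceeded KRT6B by 44.9, 38.8, 31.2 and 31.6 in the same order of plates. Within both experiments KRT5 to KRT14 was the ratio that varied most, since KRT14 was higher in replicate 1 than in replicate 2 of each.

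The members also differed in how they were spread over cells. KRT7 had a UMI in 100% of the cells of every plate, and a median cell held 67.6 to 131 counts of it. In wells with under 2000 features, of which each plate had 50 to 63, the median was 4 to 5 counts of KRT7, 3 to 4 of KRT5, 1 to 3 of KRT6A, and at most 1 of any other member. KRT5 (99.6% to 100%), KRT6A (99.3% to 100%) and KRT8 (98.3% to 99.3%) were found in nearly all cells, and KRT17 in 92.1% to 96.9%, KRT16 in 86.4% to 91.4% and KRT18 in 77.3% to 91.8%. KRT14 had a UMI in 57.04% (95% exact binomial interval 51.1% to 62.8%) and 43.9% (37.9% to 50.04%) of cells at low and in 77.3% (72.1% to 82.0%) and 62.8% (56.99% to 68.4%) at high resolution. KRT6B was found in 21.7% to 42.3% and KRT19 in 11.7% to 23.3% of cells. After thinning every cell to 10000 UMIs, which left out 2 to 7 cells of a plate, the shares were 20.2% to 45.8% for KRT14, 13.2% to 25.8% for KRT6B and 4.58% to 10.5% for KRT19. No cell type that should lack keratins was sorted, so a background share could not be set beside these, and the intervals cover counting error only. A median cell had UMIs of 8 of the 10 members, and 5, 12, 13 and 14 cells of the 4 plates had all 10.

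Most counts of KRT14, KRT6B and KRT19 came from few cells. The 10% of cells with the most KRT14 held 87.7% and 86.8% of its counts at low and 78.7% and 75.1% at high resolution, and for KRT6B the same share lay between 73.7% and 89.9%. For KRT19 it lay between 59.8% and 90.0%. A low count by itself raises this share. The top 10% of cells held only 25.9% to 29.2% of the KRT7 counts and 30.8% to 35.3% of the KRT5 counts. The highest cells held 406.5, 129.0, 491.3 and 314.8 counts of KRT14, where the median cell of each plate had between 0 and 2. Even so, KRT14 exceeded KRT5 in no more than 5 cells of a plate. At an equal depth of 10000 UMIs the variance was 17.1 times the mean for KRT6A, 16.0 for KRT14 and 11.4 for KRT5 (means of 4 plates), against 6.40 for KRT7, 4.77 for KRT6B, 1.67 for KRT18 and 1.14 for KRT19, where a value of 1 is that of counting alone. KRT7 was the most abundant member in 59.8%, 64.9%, 76.0% and 61.8% of the cells of the 4 plates, and KRT6A or KRT5 in most of the others.

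**Figure D2:**
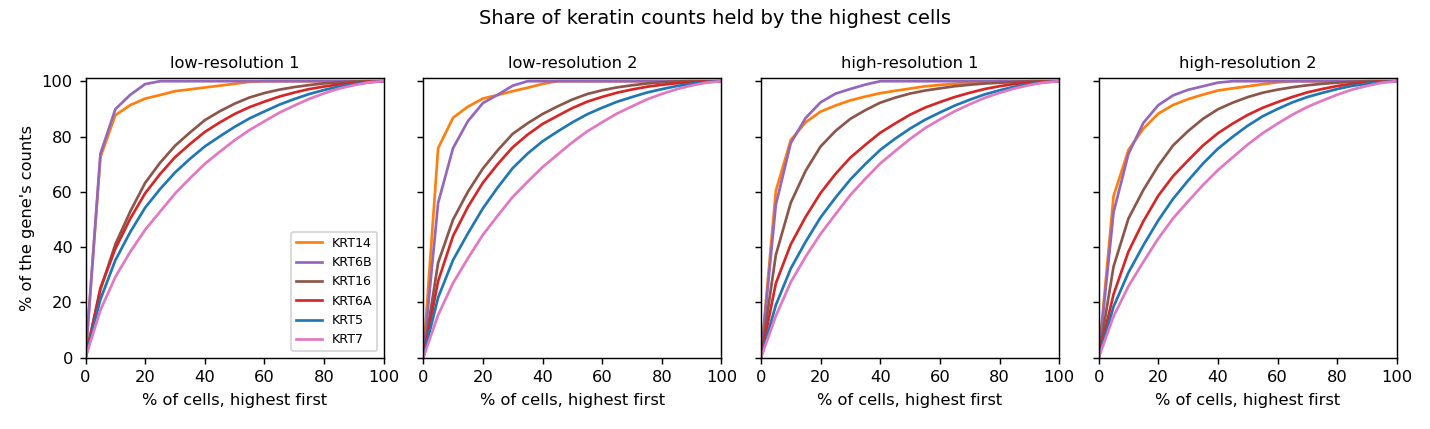
Cumulative share of a gene's counts against the share of cells, ordered from the highest count, for 6 keratins in each plate. The curves of KRT14 and KRT6B rise to 73.7% or more within the first 10% of cells, and that of KRT7 rises most slowly.

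Next, the members were compared with each other across the cells of a plate. Correlations are Spearman's rho on log-normalized counts, given as descriptions over 271 to 293 cells of a plate that share a library and differ in depth. KRT5 and KRT6A, both type II and so not partners in a filament, had the highest rho of the 45 pairs, with 0.574 and 0.711 at low and 0.710 and 0.706 at high resolution. At 10000 UMIs per cell its mean was 0.633. The next pairs were KRT16 with KRT8 at a mean of 0.480 ± 0.0696 (SD, n = 4 plates), KRT5 with KRT16 at 0.399 ± 0.0975, KRT7 with KRT8 at 0.391 ± 0.0915 and KRT8 with its partner KRT18 at 0.385 ± 0.0525. Within tertiles of the EMT score, described below, the mean rho of KRT16 with KRT8 was only 0.147, whereas KRT5 with KRT6A was at 0.632, KRT5 with KRT16 at 0.350, KRT8 with KRT18 at 0.321 and KRT7 with KRT8 at 0.276. The other textbook pairs were lower, with 0.161 ± 0.0531 for KRT5 and KRT14 and 0.240 ± 0.143 for KRT6A and KRT16. The class of the keratin did not order the pairs, as the mean over the 12 pairs of the same class was 0.219 and over the 33 pairs of different classes 0.197. Pairs of a type I and a type II chain (0.197) and pairs of the same type (0.210) were likewise close. Of the 45 pairs, 34 had a rho above 0 in all 4 plates, and the pair of KRT6A and KRT19 was the lowest at -0.116 ± 0.0279.

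**Figure D3:**
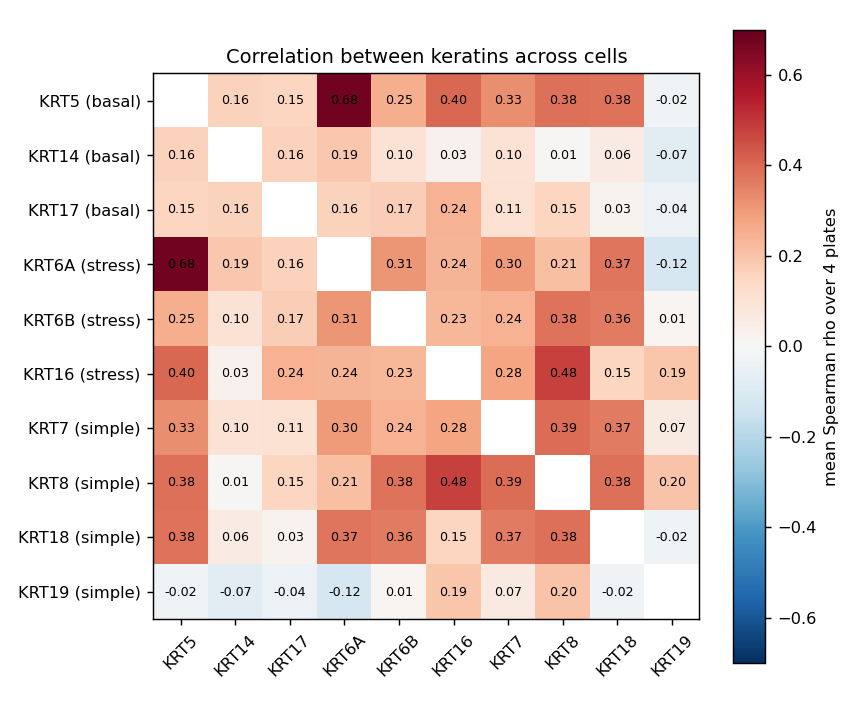
Mean Spearman rho over the 4 plates for each of the 45 pairs of keratins, with the value printed in each cell. The pair of KRT5 and KRT6A stands out at 0.68, and the row of KRT19 runs from -0.12 with KRT6A to 0.20 with KRT8.

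By a fixed rule, the 3 other genes with the highest mean rho were listed for each member, among the 8018 genes that were detected in 20% or more of each plate's cells. The median rho of all these genes lay between -0.0132 and 0.0449 for the 10 members. KRT5 was most like ATP5B (0.444), RPL14 (0.439) and ATP5G3 (0.432), and KRT6A most like RPL14 (0.496), NPM1 (0.489) and VDAC1 (0.479), which are genes of the ribosome, the nucleolus and the mitochondrion. KRT14 was nearest to YBX1 (0.255), RPS15A (0.242) and C1QBP (0.231), all weak. Depth of the cell had a mean rho of 0.223 with KRT5, 0.300 with KRT6A, 0.306 with KRT18, 0.295 with KRT7 and 0.203 with KRT6B, and of at most 0.0863 with the other members, and the part of depth in these likenesses was not tested. A different set stood beside KRT8, which was most like EPCAM (0.641), an epithelial adhesion molecule, S100A14 (0.635) and MAL2 (0.613), and beside KRT16, with KRT15 (0.577), S100A14 (0.566) and FXYD3 (0.560). KRT6B was most like EPCAM (0.448), S100A14 (0.445) and SFN (0.428), and KRT18 most like SFN (0.460), SNRPB (0.416) and S100A2 (0.392). KRT7 was nearest to KRT81 (0.564), MAL2 (0.449) and ANXA3 (0.447), and KRT17 to CD24 (0.238), KRT81 (0.217) and OCLN (0.192). FXYD3 (0.303) and LGALS3 (0.299) were among the 3 genes most like KRT19.

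The study scored EMT in each cell by gene set variation analysis, as the score of mesenchymal genes minus that of epithelial genes. The score was computed here without the 10 keratins, of which KRT7 and KRT19 are on the epithelial list of 65 genes. It used 62 epithelial genes and 100 or 97 mesenchymal genes. KRT8 followed the score most closely, with a rho of -0.588 and -0.529 at low and -0.726 and -0.706 at high resolution. KRT16 came next, at -0.544, -0.490, -0.662 and -0.673. For comparison, CDH1, EPCAM, VIM and FN1, the EMT markers that the study names, had mean values of -0.737, -0.726, 0.607 and 0.750, which are partly set by the score, since all 4 are among its genes. KRT6B (-0.347 ± 0.130, SD, n = 4 plates), KRT7 (-0.328 ± 0.145) and KRT19 (-0.296 ± 0.0621) followed the score less, and KRT18 (-0.192 ± 0.152), KRT5 (-0.182 ± 0.204) and KRT17 (-0.118 ± 0.107) less again. KRT6A had a rho of 0.260 and 0.117 at low and -0.200 and -0.247 at high resolution, and KRT14 was close to 0 or above it in every plate, at 0.0158 to 0.171. The low means of KRT5 and KRT17 came from the high-resolution plates, at -0.369 and -0.349 for KRT5 and -0.170 and -0.243 for KRT17, whereas at low resolution KRT5 was at -0.00913 and -0.00187 and KRT17 at -0.0261 and -0.0313. With single markers the order was similar, as KRT8 had a mean rho of 0.539 with CDH1, 0.641 with EPCAM, -0.453 with VIM and -0.590 with FN1, whereas KRT14 had -0.0296, 0.0319, 0.0569 and -0.0110. The mitochondrial share of a cell had a mean rho of 0.263 with KRT16, 0.159 with KRT8 and -0.165 with KRT6A, and its part in these values was not tested.

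**Figure D4:**
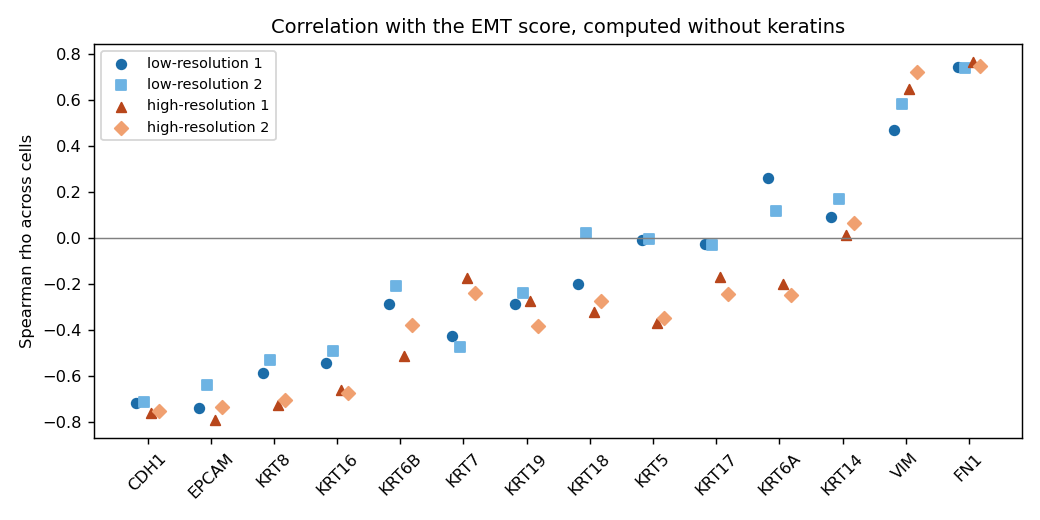
Spearman rho across cells of each keratin and 4 EMT markers with the EMT score, computed without the keratins, with 1 point per plate. KRT8 and KRT16 lie closest to CDH1 and EPCAM, and the points of KRT6A fall on both sides of 0, above it at low and below it at high resolution.

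To set these relations against the spread between plates, the cells of each plate were divided by rank of the score into 3 equal parts (tertiles) of 90 to 98 cells, the counts of each tertile were summed, and the upper (most mesenchymal) tertile was compared with the lower tertile in edgeR with the plate as a term. Of the 10 keratins, 9 were lower in the upper tertile at an adjusted p under 0.05, where 20.8% of the 11477 genes tested were lower and 41.2% changed in either direction. In all 4 plates 8 of the 10 lay lower in the upper tertile, KRT6A and KRT14 being the exceptions, as 22.5% of genes did, and for 6 of them (KRT5, KRT6B, KRT16, KRT8, KRT18 and KRT19) the tertiles did not overlap, as for 12.9% of genes. The median log2 fold change of the 10 was -0.85, against 0.00 for all genes tested. Sums do not tell fewer expressing cells from fewer molecules per cell, so the share of cells with a UMI is given below for the members whose share was lower in the upper tertile of every plate. The KRT14 share went from 56.7% and 37.4% in the lower to 60.8% and 52.2% in the upper tertiles at low resolution. At high resolution it went from 79.4% and 58.2% to 77.3% and 67.0%. The KRT17 share rose in low-resolution replicate 2 (94.5% to 96.7%) and high-resolution replicate 1 (95.9% to 99.0%) and fell in the other plates. KRT5, KRT6A and KRT7 had a UMI in 98.9% or more of the cells of both tertiles. The mitochondrial share moved with the score, since the cells of the lower tertiles had 31.98% to 34.0% mitochondrial counts and those of the upper tertiles 26.1% to 29.5%. The median depth went from 33850 and 37920 in the lower to 27490 and 30190 in the upper tertiles at low resolution, and from 38030 and 38170 to 39390 and 41870 at high resolution, so that it fell in one experiment and rose in the other. The part of either in the changes was not tested.

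Among the simple keratins, all 4 were lower in the upper tertile. KRT8 went from 7.18, 7.05, 8.54 and 7.63 counts per 10000 in the lower tertiles of low-resolution replicates 1 and 2 and high-resolution replicates 1 and 2 to 2.25, 2.50, 1.97 and 1.97 in the upper tertiles. The tertiles did not overlap, with a log2 fold change of -1.90 ± 0.121 (SE, adjusted p = 1.65e-08), and KRT8 still had a UMI in 96.9% or more of the upper cells. KRT18, its partner, fell less, by 0.88 ± 0.155 on the log2 scale (adjusted p = 0.000313), from 1.33, 1.02, 1.57 and 1.89 to 0.767, 0.962, 0.692 and 0.940. The share of cells with a KRT18 UMI went from 88.7%, 84.6%, 90.7% and 95.9% to 68.0%, 78.9%, 80.4% and 92.8%. KRT7 fell the least of the called genes, by 0.54 ± 0.0730 (adjusted p = 2.66e-05), from 31.4, 34.6, 42.0 and 35.9 to 21.0, 21.6, 35.3 and 28.7, so that its upper tertile in high-resolution replicate 1 lay within the range of the lower tertiles. KRT19, a type I keratin without the usual tail, was rare but fell by 2.74 ± 0.397 (adjusted p = 4.94e-05), and the share of cells with a UMI went from 23.7% to 35.7% in the lower tertiles to 2.06% to 11.1% in the upper tertiles.

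All 3 stress keratins were lower in the upper tertile as well, and by very unequal amounts. KRT6B had the largest change of the 10 genes, -4.41 ± 0.422 (adjusted p = 8.10e-07), from 0.583, 0.336, 1.58 and 1.30 to 0.0311, 0.0593, 0.0347 and 0.0583. The share of cells with a KRT6B UMI went from 36.1%, 39.6%, 64.9% and 59.2% to 5.16%, 14.4%, 13.4% and 21.6%. KRT16 fell from 6.22, 6.47, 8.95 and 7.95 to 1.19, 1.22, 0.776 and 1.04 (log2 fold change -2.92 ± 0.190, adjusted p = 2.04e-08), and 95.6% or more of the lower and 72.2% to 81.4% of the upper cells had a UMI of it. KRT6A stood apart from both. It went from 12.3, 14.7, 32.3 and 33.6 to 17.9, 12.4, 12.9 and 13.3, so that it was higher in the upper tertile of low-resolution replicate 1 and lower in the other 3 plates. Its log2 fold change over all plates was -0.70 ± 0.219 (adjusted p = 0.0189), and the call was lost under 8 of 15 alternatives. Among these were the fits without high-resolution replicate 1 (-0.43, adjusted p = 0.155) and without replicate 2 of that experiment (-0.45, adjusted p = 0.157). In DESeq2 the call was lost with a value of -0.68 (adjusted p = 0.0895). Without low-resolution replicate 1 the value was -1.06.

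Of the basal keratins, KRT5 and KRT17 were lower in the upper tertile and KRT14 was not. KRT5 went from 15.6, 18.6, 27.2 and 29.6 to 12.7, 13.3, 13.2 and 13.7 (log2 fold change -0.83 ± 0.128, adjusted p = 8.49e-05). The upper tertiles of the 4 plates were thus nearly equal, while the lower tertiles differed between the experiments. KRT17 went from 4.47, 5.95, 8.44 and 9.92 to 4.03, 4.07, 4.66 and 3.94 (log2 fold change -0.81 ± 0.129, adjusted p = 0.000127), with overlap of the tertiles. KRT14 was at 1.02, 0.462, 4.002 and 0.723 in the lower tertiles and at 2.06, 1.71, 1.89 and 1.16 in the upper tertiles, higher in 3 of 4 plates, with a log2 fold change of 0.47 ± 0.364 (adjusted p = 0.328). Without low-resolution replicate 2 its value was -0.01, and it passed the threshold without high-resolution replicate 1 (1.15) and with no filter on low counts (0.45, adjusted p = 2.2e-05). With no filter the standard error was 0.0963 in place of 0.364 at nearly the same change, although the plates went opposite ways. That p is therefore not a measure of the spread between plates.

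**Figure D5:**
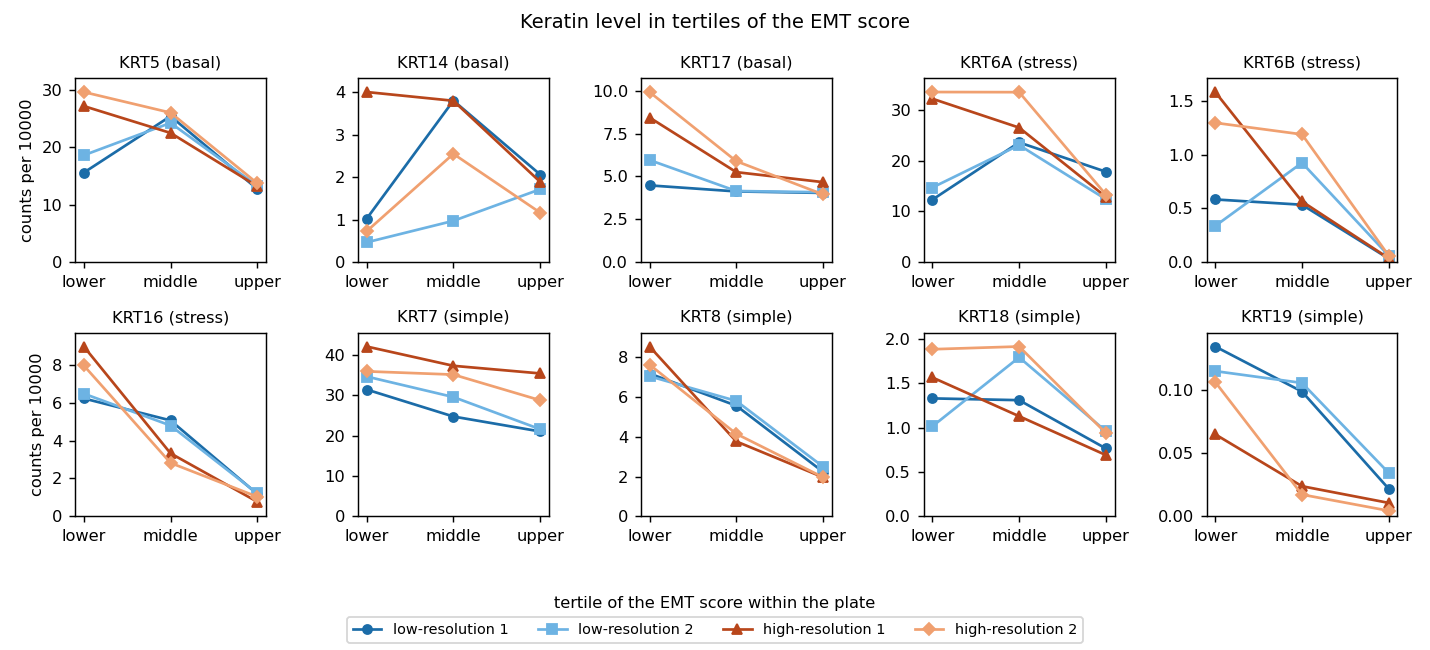
Level of each keratin, as counts per 10000, in the lower, middle and upper tertile of the EMT score within each plate, with 1 line per plate and each panel starting at 0. KRT16, KRT8 and KRT19 decline at both steps in every plate, and KRT5 and KRT6A peak in the middle tertile of both low-resolution plates only.

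The middle tertiles were compared with each of the others, and the sizes of the steps were not tested against each other. Between the lower and the middle tertile, KRT8 (log2 fold change -0.74 ± 0.117), KRT16 (-0.99 ± 0.176), KRT17 (-0.60 ± 0.128), KRT19 (-1.01 ± 0.320) and KRT7 (-0.26 ± 0.0728) were lower, 5 of 10 where 9.29% of genes were. Between the middle and the upper tertile, 8 were lower where 8.70% of genes were, all but KRT14 and KRT17. KRT6B had a change of -0.21 ± 0.293 (adjusted p = 0.681) at the first step and -4.20 ± 0.429 (adjusted p = 1.69e-05) at the second. The first value pools plates that went opposite ways, as the middle tertiles held 0.534, 0.925, 0.564 and 1.19 counts per 10000 of KRT6B, above the lower tertile in low-resolution replicate 2 and below it in the other plates, most in high-resolution replicate 1. KRT17 changed by -0.60 (adjusted p = 0.00475) and then by -0.21 (adjusted p = 0.308). KRT5 was at 25.4 and 24.2 in the middle tertiles of the low-resolution plates, above both other tertiles, but at 22.5 and 26.0 in those of the high-resolution plates, between the other tertiles. KRT6A likewise reached 23.6 and 23.1 in the middle tertiles at low and 26.6 and 33.6 at high resolution, where the lower tertiles held 32.3 and 33.6. KRT16, KRT17, KRT7, KRT8 and KRT19 declined at each step in all 4 plates.

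The change along the score was then compared between the experiments by an interaction term. Of the 10 keratins, 7 passed the threshold, where 3.28% of all genes did. The change was more negative in the high-resolution plates for 6 of them (2.36% of all genes) and less negative for KRT7 (0.924%). KRT6A differed by -1.48 ± 0.143 on the log2 scale (adjusted p = 2.32e-06), with a change of 0.07 ± 0.0909 within the low-resolution experiment and of -1.41 ± 0.0658 within the other. KRT5 differed by -0.69 ± 0.0879 (adjusted p = 6.41e-05), with changes of -0.47 and -1.16. KRT17 changed by -0.43 and -1.17, KRT16 by -2.48 and -3.29, and KRT8 by -1.66 and -2.12, and these differences were -0.74 ± 0.134 (adjusted p = 0.00288), -0.81 ± 0.151 (adjusted p = 0.00395) and -0.45 ± 0.111 (adjusted p = 0.0262). KRT7 changed by -0.71 and -0.36, a difference of 0.34 ± 0.0790 (adjusted p = 0.0182). With all 4 plates KRT14 had the widest difference, -1.85 ± 0.454 (adjusted p = 0.0251). Its change was 1.37 ± 0.204 (adjusted p = 2.95e-06, where 19.7% of genes were higher) at low and -0.47 ± 0.300 (adjusted p = 0.247) at high resolution. The high-resolution plates disagreed: KRT14 fell in replicate 1 (lower tertile 4.002, upper 1.89) but rose in replicate 2 (lower 0.723, upper 1.16). Without high-resolution replicate 1 the KRT14 difference was -0.79, against -1.50 for KRT6A. Across single cells, the rho of KRT14 with the score was 0.0158 and 0.0642 at high resolution. The part of the few cells rich in KRT14 in its summed change was not tested. The values within an experiment rest on 2 plates each.

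These differences were not equally firm. KRT6A passed the threshold under each of 12 alternatives and KRT5 under 11 of 12, the exception being the fit without the plate term (adjusted p = 0.106). KRT14 passed in 1 of the 4 fits that left out a plate, and so did KRT7 and KRT8, KRT16 passed in 2, and KRT17 in 3, losing its call without low-resolution replicate 1. Differences were not called for KRT6B (-1.61 ± 0.801, adjusted p = 0.338), KRT18 (-0.64 ± 0.211, adjusted p = 0.105) or KRT19 (-1.36 ± 0.702, adjusted p = 0.365). The tertiles are ranks within a plate, so the upper tertile of one plate need not match that of another in score. Its lowest score was 0.624 and 0.468 at low and 0.563 and 0.523 at high resolution, and the scores were fitted separately by experiment. The change of CDH1, an epithelial marker within the score, was itself more negative in the high-resolution plates (-3.94 at low and -5.39 at high resolution, difference -1.45 ± 0.345, adjusted p = 0.0218), the direction of 6 of the 7 called keratins. The other markers did not pass, with differences of -1.06 ± 0.382 for EPCAM (adjusted p = 0.149), -1.19 ± 0.343 for FN1 (adjusted p = 0.0589) and 0.18 ± 0.601 for VIM (adjusted p = 0.935). The part of CDH1's steeper contrast and of depth in the keratin differences was not tested.

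The plates as a whole were also compared between the experiments, by sums over all passing cells. Of the 10 keratins, 5 passed the threshold, 4 higher and 1 lower in the high-resolution plates, where 12.4% of 12429 genes passed, 6.25% higher and 6.19% lower. The high-resolution plates held more of the stress keratins KRT6A, at 24.3 and 26.9 counts per 10000 against 17.5 and 16.5 (log2 fold change 0.62 ± 0.105, adjusted p = 0.00301), and KRT6B, at 0.778 and 0.853 against 0.389 and 0.426 (1.03 ± 0.125, adjusted p = 0.000453). The remaining stress keratin, KRT16, was at 4.62 and 3.92 against 4.24 and 4.29, with overlap of the groups (0.04 ± 0.115, adjusted p = 0.877). KRT17 was higher, at 6.26 and 6.57 against 4.22 and 4.81 (0.54 ± 0.115, adjusted p = 0.0108), and so was KRT7, at 38.4 and 33.2 against 26.0 and 28.9 (0.42 ± 0.120, adjusted p = 0.0417). KRT19 was lower, at 0.0350 and 0.0421 against 0.0869 and 0.0862 (-1.12 ± 0.231, adjusted p = 0.00882), from 40 and 57 UMIs against 86 and 87.

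The other members did not pass. KRT5 was at 21.2 and 23.2 against 17.6 and 18.6, without overlap of the groups, and missed the threshold (0.33 ± 0.108, adjusted p = 0.0678). In the high-resolution plates 5 of the 10 keratins lay above both low-resolution plates, as 25.5% of genes did, and KRT8 and KRT19 lay below both, as 32.1% did. KRT8 was at 4.99 and 4.58 against 5.10 and 5.23 (-0.08 ± 0.107, adjusted p = 0.688), and KRT18 at 1.15 and 1.58 against 1.14 and 1.23 (0.24 ± 0.144, adjusted p = 0.312). KRT14 was at 3.25 and 1.49 against 2.19 and 1.01 (0.62 ± 0.322, adjusted p = 0.236). It was higher in replicate 1 than in replicate 2 of both experiments. KRT5 and KRT14 passed with no filter on low counts (adjusted p = 0.00936 and 2.17e-05) and with the replicate number as a block (0.0466 and 0.000296). For KRT14 the standard error with no filter was 0.1235 in place of 0.322, although its plates overlapped between the experiments, so that p does not measure their spread. KRT6A, KRT6B and KRT19 passed whichever plate was left out. Within the flow cell of the other 3 plates, that is without low-resolution replicate 1, 4 keratins passed: KRT6A, KRT6B and KRT19 as before, and KRT14 with a log2 fold change of 1.23, while KRT17 (0.41, adjusted p = 0.0704) and KRT7 (0.31) lost their calls. KRT14 also passed without high-resolution replicate 2 (1.09), but was at -0.0512 without high-resolution replicate 1. KRT7 lost its call also without high-resolution replicate 1 (0.31). Sums of cell type markers also lay apart between the experiments: luminal markers other than keratins were at 0.504 to 0.607 counts per 10000 at low and 0.312 to 0.322 at high resolution, immune markers at 0.464 to 0.571 and 0.254 to 0.324, fibroblast markers at 0.0674 to 0.0768 and 0.0945 to 0.132, and endothelial markers at 0.141 to 0.144 and 0.190 to 0.214. Their part in the keratin differences was not tested. The experiments took cells from bands of different width, so a different make-up of sorted cells cannot be told apart from a change in like cells. Nor can either be told apart from a difference in plates or depth between the experiments.

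Genes that work with keratins were read from the same fits, by lists of genes named for their roles. Of all genes, 41.2% were called across the tertiles (20.8% lower) and 12.4% between the experiments. Among 22 other keratins, 8 could be tested across the tertiles, and 7 were lower in the upper tertile (median log2 fold change -2.94), led by KRT13 (-5.74), KRT4 (-4.54) and KRT15 (-4.07). KRT13 had at most 17 UMIs in a plate. Between the experiments 6 of 9 passed, 2 higher and 4 lower in the high-resolution plates, with KRT4 (-1.88), KRT23 (-1.21) and KRT86 (1.10) changed most. Among 12 genes that anchor filaments in desmosomes and hemidesmosomes, 11 passed across the tertiles. The desmosomal genes EVPL (-2.12), DSP (-2.09) and PPL (-2.08), the last of which is on the epithelial list behind the score, led the 7 that were lower, and 4 were higher, the hemidesmosomal DST (0.72), ITGA6 (0.23) and ITGB4 (0.41) and the desmosomal PKP2 (0.98). COL17A1, a collagen of hemidesmosomes, was among those that were lower (-1.86). Between the experiments 7 of the 12 passed, led by PPL (-0.97), DSP (-0.84) and EPPK1 (-0.80), and COL17A1 (-0.48) and DST (-0.54) were lower too, while ITGA6 (0.50) and ITGB4 (0.53) were the 2 that were higher.

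Of 14 regulators of keratin genes tested, 13 passed across the tertiles, 11 of them lower. OVOL1 (-5.27), GRHL3 (-4.71) and ELF3 (-4.06), transcription factors of epithelial differentiation, changed most, and ELF3 and GRHL2 (-3.84), another of the 11, are on the epithelial list behind the score. The AP-1 subunits FOSL1 (1.03) and JUNB (0.92) were the 2 that were higher. Between the experiments 8 of 14 passed, with FOSL1 (1.28) and JUNB (1.17) higher and ELF3 (-0.99) lower in the high-resolution plates. Of 6 proteins that bind or fold keratins, 3 were lower in the upper tertile, SFN (-1.57), HSPB1 (-1.39) and FAM83H (-0.91), and SFN was higher in the high-resolution plates (0.57). Of the other intermediate filament genes, VIM (5.56), which is on the mesenchymal list, and the nuclear lamin LMNA (0.51) were higher in the upper tertile, and VIM was higher in the high-resolution plates (0.94). In the interaction, KRT15 (-1.98), KRT10 (-0.93), PKP2 (-0.90) and STAT3 (-0.64) passed among all these lists, with the same sign as KRT5, KRT6A, KRT16, KRT17 and KRT8. For PKP2 this was a smaller rise and not a steeper fall, as it changed by 1.45 within the low- and 0.56 within the high-resolution experiment.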

How the data were processed

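Single MCF10A cells were sequenced by SORT-seq, with 1 plate per replicate and 2 plates per experiment. The number of patches behind each replicate was not known here. The values deposited by the authors are expected counts per gene and well: distinct UMIs, raised to allow for repeated draws from 4096 UMI sequences, and not scaled. The submitters' processing notes name STAR 2.7.3a, Seurat 4 and hg38, and no annotation is named. Spike-in rows (0.847% to 1.39% of counts) were left out of library sizes, but not of the totals and median depths given for whole plates. The study's limits on features (2000 to 9000) and mitochondrial counts (under 40%) were applied to wells with spike-in rows counted. This kept 562 low- and 584 high-resolution cells, or 653 and 660 without the mitochondrial limit, in each case fewer than the study analysed, for which no reason was found. No doublet caller was run.

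The members and lists were chosen with earlier results of these data known, as were the alternatives. Counts were log-normalized to 10000 per cell for correlations. The EMT score is an own implementation of GSVA (Gaussian kernel, 1 fit per experiment), with all 10 keratins left out. Counts were summed by plate, or by plate and tertile, rounded, and tested in edgeR 4.0.16 under R 4.3.3 (quasi-likelihood, TMM, filterByExpr, Benjamini-Hochberg over all genes tested, threshold 0.05). A standard error is the fold change over the root of its F statistic. The score and the fits were tested on simulated data. Named genes are the 10 members, the EMT markers, the 3 largest changes called in each list and the 3 genes most correlated with each member, of which 1 is not reported here. ITGA6, ITGB4, DST, PKP2, COL17A1, GRHL2, KRT10, KRT81, STAT3 and TP63 were named after their values were seen. Alternatives were DESeq2 1.42.0, library size only, no filter on low counts, no mitochondrial limit, the members or mitochondrial counts left out of the library, plate or replicate terms changed, another score (mean z-score difference), 10000 UMIs per cell, 2 parts in place of 3, and each plate left out. Fits within each experiment were added after the data were seen.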

Additional observations from a re-analysis of the deposited data

Results flagged for a closer look

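For 7 keratins the change from the lower to the upper tertile of the EMT score differed between the experiments by the interaction term in edgeR. The difference, high- minus low-resolution on the log2 scale, was -0.687 for KRT5, -1.85 for KRT14, -0.738 for KRT17, -1.48 for KRT6A, -0.807 for KRT16, 0.343 for KRT7 and -0.453 for KRT8. That of KRT14 was -0.79 without high-resolution replicate 1. KRT6A is the gene whose difference held under each of the 12 alternatives, with an adjusted p of at most 0.00321. No sample was tested as an outlier, because each experiment has 2 plates.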

How the results depend on the processing

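Across the tertiles, the 9 keratins other than KRT14 kept a lower value in the upper tertile under the alternatives that used all or 3 plates, and 8 of them, all but KRT6A, passed the threshold in each of 15 alternatives. KRT6A passed in 7 of 15, with an adjusted p of up to 0.590, and was at 0.0694 within the low-resolution plates. KRT14 ranged from -0.0146 without low-resolution replicate 2 to 1.15 without high-resolution replicate 1, where it passed, and was at -0.47 within the high-resolution plates. The last value pools a fall in replicate 1 and a rise in replicate 2. Between the experiments, KRT16 ranged from -0.0899 to 0.165 and KRT14 from -0.0512 to 1.23 with a plate left out, both lowest without high-resolution replicate 1, and KRT14 passed without low-resolution replicate 1 or high-resolution replicate 2. In the interaction, KRT6B was at 0.48 at 10000 UMIs per cell. The genes called between the experiments numbered 1546, and 987 to 1322 with a plate left out. Across the tertiles 4734 genes were called, 3044 with no plate term and 3002 at 10000 UMIs, where fewer genes were tested. With library size only, 59.8% of these calls were higher in the upper tertile in place of 49.7%, and the median of all genes moved to 0.08. In the interaction 377 genes and 7 keratins were called. This fell to 99 genes and 4 keratins in DESeq2, 156 genes with no mitochondrial limit, 96 genes at 10000 UMIs, and 22 genes and 1 keratin, KRT6A, with no plate term. With a plate left out, 83 to 268 genes and 3 to 7 keratins were called, the fewest without low-resolution replicate 2. With a plate left out, the lone plate of an experiment is assumed to vary like the others. The causes were not tested. The replicate numbers did not pair the plates, as the differences between replicates 1 and 2 had a correlation of -0.0290 across 12429 genes in the 2 experiments. With the replicate number as a block, 2008 genes and 7 keratins passed between the experiments, KRT5 and KRT14 added. With no filter on low counts, the standard errors were mostly smaller. For KRT14 across the tertiles the standard error was 0.0963 in place of 0.364, although its plates went opposite ways, so these p-values are not a measure of plate spread. KRT5 (adjusted p = 0.00936) and KRT14 (2.17e-05) then passed between the experiments, KRT14 (2.2e-05) across the tertiles, and KRT6B (0.00343) and KRT18 (0.00324) in the interaction, where both also passed with the mean z-score difference (0.00985 and 0.0154) and KRT18 without low-resolution replicate 1 (0.0337). Depth limits the share of cells with a UMI, which at 10000 UMIs was 20.2% to 45.8% for KRT14 in place of 43.9% to 77.3%.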

Other observations

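Outside the 10 members, the row of KRT81, a keratin of hair, held more counts than any of them in the high-resolution plates, whereas KRT7 held more in both low-resolution plates, and KRT81 was picked out after its values were seen. Its level was 24.5 and 26.8 counts per 10000 at low and 56.9 and 46.5 at high resolution, or 38.7 ± 15.6 (SD, n = 4 plates), with a log2 fold change of 1.04 ± 0.127 between the experiments (edgeR, adjusted p = 0.000453). Across the tertiles it fell by 0.36 ± 0.0804 on the log2 scale (adjusted p = 0.00215). KRT81 has near copies in KRT83 and KRT86, so that its count may hold reads of these genes. KRT15, a basal keratin, and KRT10, a keratin of differentiated epidermis, had levels of 8.96 ± 2.93 and 7.91 ± 3.03, and both were lower in the high-resolution plates (log2 fold change -0.77 and -0.91). The files hold 29 further keratin rows in all, 6 of them pseudogenes, and the row of KRT16P1 had 62 to 157 UMIs in a plate.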
